A study of Mus musculus with 12 samples.

Results

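Toll-like receptors are membrane proteins that recognise microbial lipids, proteins and nucleic acids, and B cells carry several of them beside the antigen receptor. Receptors at the cell surface read microbial lipids, whereas those in endosomes read nucleic acids and reach that compartment with the help of the membrane protein UNC93B1. Most of them signal through the adaptor MyD88 to NF-kB and to interferon regulatory factors, and the related surface receptor CD180 works as a pair with the secreted protein MD-1. The 9 genes followed here are the surface receptors Tlr1 and Tlr4, the endosomal receptors Tlr3, Tlr7 and Tlr9, the surface receptor Cd180 with its partner Ly86, which encodes MD-1, the adaptor gene Myd88 and the transport gene Unc93b1. They were chosen by name, with every probe set that the array annotation assigned to them alone. That gave 15 of the 45101 probe sets, of which 11 passed the filter on dim signal (a log2 value above 4 on at least 3 arrays). Through these, 8 of the 9 genes were tested among 9293 genes. Tlr3 had no probe set past the filter.

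RNA was measured on 12 one-colour arrays of B220-positive spleen B cells sorted by flow cytometry, in 4 groups of 3 arrays. The mice were of mixed 129/Sv-C57BL/6 background, and the genotype was Foxp1flox/del, called deleted below, or Foxp1wt/flox, called control, so a conditional (flox) allele of the forkhead factor gene Foxp1 was present in all 4 groups. Cells of each genotype were incubated for 4 h either with IgM, as the labels call the agent, or without it. No recombinase, age or sex is named in the labels, nor whether replicates came from separate animals. Each p-value therefore covers no more than the differences among these samples. Sex-linked transcripts differed between the replicate numbers, as given below with Tlr7, so the arrays of a group were not all repeats of a single sample. How many animals stood behind each array was not known.

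Before the results, the array of deleted cells with IgM, replicate 3, stood apart. It correlated at 0.817 and 0.865 with its group mates over the tested genes, against 0.951 to 0.980 for the other pairs of arrays within a group, and results that rest on it are given with and without it. Foxp1 itself was read by 8 probe sets, all past the filter. Its brightest probe set lay at 12.08 to 13.30 on control and 12.14 to 13.20 on deleted arrays, and no probe set differed between genotypes (limma, lowest adjusted p = 0.662, 0 at an unadjusted p under 0.05), and the place of these probe sets relative to the deletion was not known here. Of 10 pan-B markers 9 had a probe set, and all 9 were above the filter. Their summed linear level was 74426 to 76434 in control and 68167.5 to 72930 in deleted cells without IgM, and 32659 to 36670 and 36731 to 47243 with it.

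The comparison of cells with and without IgM asked how the RNA of these genes moved with the agent that the labels call IgM. In control cells 3 of the 8 tested members fell, Tlr1, Tlr4 and Unc93b1, and 1 rose, Cd180 (limma, Benjamini-Hochberg adjusted p under 0.05). In deleted cells Tlr1 and Unc93b1 fell, and Cd180 and Tlr7 rose. The background was high: 20.7% of the 9293 genes passed in control cells (8.71% higher, the rest lower) and 19.0% in deleted cells (9.78% higher, the rest lower). The arrays with and without IgM did not overlap for 5 of 8 members in control and 6 of 8 in deleted cells, against 45.5% and 34.5% of all tested genes. Without deleted IgM replicate 3, the shares of genes called were 36.1% and 25.7%, with Ly86 added to the members that fell in control cells and the same 4 members called in deleted cells. The median log2 difference of the 8 members was -0.34 in control and -0.24 in deleted cells, against -0.05 and -0.08 over all tested genes. The 2 genotypes share no array in these comparisons. In bulk samples fewer cells of a type and less RNA per cell cannot be told apart.

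**Figure D1:**
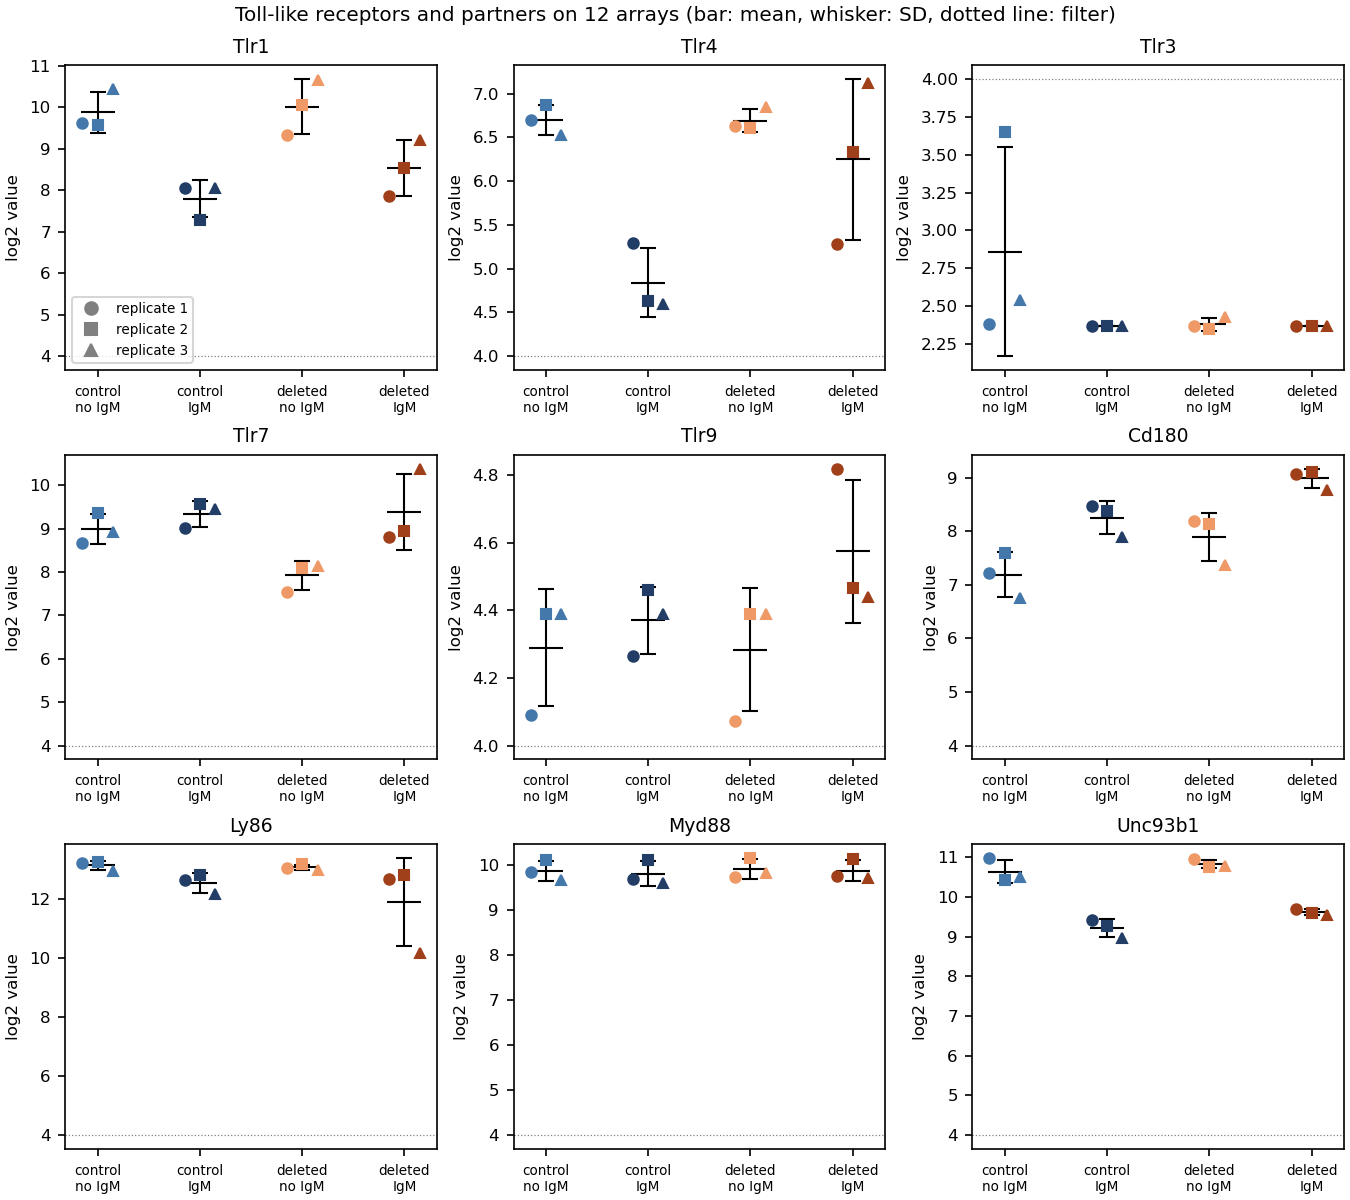
Log2 values (y axis) of the brightest probe set of each of the 9 genes on the 12 arrays, by genotype and IgM (x axis). Points are arrays, with 1 symbol per replicate number, bars are group means and whiskers SDs of 3 arrays, the dotted line is the filter at 4, and the y axes differ between panels. Tlr1 and Unc93b1 lie lower and Cd180 higher with IgM in both genotypes. Tlr4 is low on the 3 control arrays with IgM and on deleted IgM replicate 1, and Tlr3 stays under the filter on every array.

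TLR1 forms a surface pair with TLR2 that reads bacterial lipoproteins. The log2 values of Tlr1 in control cells were 9.61, 9.56 and 10.45 without IgM (replicates 1, 2 and 3) and 8.05, 7.28 and 8.05 with it. Those of deleted cells were 9.34, 10.07 and 10.66 without IgM and 7.87, 8.53 and 9.21 with it. All arrays with IgM lay below all arrays without it in each genotype. Tlr1 fell by 2.08 on the log2 scale in control cells, or 4.23-fold (SE 0.43, n = 3 per group, limma adjusted p = 0.00651), and fell by 1.48, or 2.79-fold, in deleted cells (SE 0.43, n = 3 per group, limma adjusted p = 0.0357). Within single replicate numbers the difference was -2.40 to -1.56 in control and -1.53 to -1.45 in deleted cells. The fall in deleted cells did not pass without deleted IgM replicate 1 or 2 (adjusted p = 0.0879 and 0.077) or without deleted unstimulated replicate 2 or 3 (adjusted p = 0.0937 and 0.128). The difference was -1.82 when deleted IgM replicate 3 was left out (limma adjusted p = 0.0132).

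The 300-base windows around the start sites of Tlr1, which fell with IgM, Cd180, which rose, and Myd88, which did not pass in any comparison, are shown for the 3 kinds of response. The table of RefSeq promoters for build GRCm38.p6 held 6 of the 9 members in 8 windows, each from 250 bases before to 50 after a start site. Capitals mark matches on either strand to 5 motifs, the forkhead core TGTTTAC, NF-kB (GGG and CC with any 5 bases between), AP-1 TGANTCA, the interferon response motif (GAAA and GAAA with any 2 bases between) and PU.1 GAGGAAG, and matches to different motifs did not overlap in these 3 windows.
Tlr1, chr5:64933509-64933808, minus strand: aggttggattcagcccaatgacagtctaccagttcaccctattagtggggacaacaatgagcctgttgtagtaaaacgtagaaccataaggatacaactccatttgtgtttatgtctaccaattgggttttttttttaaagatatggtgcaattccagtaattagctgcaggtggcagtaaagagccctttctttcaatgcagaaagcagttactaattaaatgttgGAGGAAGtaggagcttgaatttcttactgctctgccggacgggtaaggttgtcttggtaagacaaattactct
Cd180, chr13:102693297-102693596, plus strand: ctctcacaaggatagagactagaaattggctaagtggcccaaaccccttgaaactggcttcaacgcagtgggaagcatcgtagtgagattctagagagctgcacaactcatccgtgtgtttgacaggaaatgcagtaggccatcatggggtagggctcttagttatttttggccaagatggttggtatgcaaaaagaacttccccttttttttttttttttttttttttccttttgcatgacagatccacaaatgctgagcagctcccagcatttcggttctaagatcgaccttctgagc
Myd88, chr9:119339969-119340268, minus strand: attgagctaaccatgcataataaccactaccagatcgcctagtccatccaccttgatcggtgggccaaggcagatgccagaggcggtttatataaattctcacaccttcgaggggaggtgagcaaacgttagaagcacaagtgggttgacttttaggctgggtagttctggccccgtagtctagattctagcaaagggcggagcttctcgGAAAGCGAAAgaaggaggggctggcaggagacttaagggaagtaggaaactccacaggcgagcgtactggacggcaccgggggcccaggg
The Tlr1 window shown held 1 match, to the PU.1 motif, starting 23 bases before the start site, and the second Tlr1 window, at chr5:64932650-64932949, held none of the 5 motifs. Over all 32851 windows the share with the PU.1 motif was 13.6%. The Myd88 window held the interferon response motif 40 bases before its start site, as did 3.44% of all windows at any position. None of the 5 motifs occurred in the Cd180 window shown, and the forkhead core was in none of the 8 windows of these genes, against 3.65% of all windows. NF-kB was found in 50.8% and AP-1 in 7.81% of all windows. These are matches of letters in short windows and show no binding.

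TLR4 is the receptor for bacterial lipopolysaccharide. Its brighter probe set, 1418162_at, lay at 6.70, 6.86 and 6.53 in control cells without IgM and at 5.29, 4.62 and 4.60 with it. The deleted arrays read 6.63, 6.60 and 6.84 without IgM and 5.29, 6.34 and 7.12 with it. The control groups did not overlap, while the deleted arrays with IgM ran from below to above those without it. In control cells Tlr4 fell by 1.86 on the log2 scale, or 3.63-fold (SE 0.39, n = 3 per group, limma adjusted p = 0.00676). In deleted cells the difference was -0.44 with a 95% interval from -1.30 to 0.42 (limma adjusted p = 0.459). It was -0.88 without deleted IgM replicate 3 (adjusted p = 0.0672), and with the replicate number as a block and that array left out it was -0.92 and passed (adjusted p = 0.0416). The share of all tested genes called in that last fit was not counted. The difference between the genotypes in the IgM response, tested as an interaction, was 1.42 with an interval from 0.20 to 2.63 and did not pass (limma adjusted p = 0.951, unadjusted p = 0.0264). Only 0.108% of tested genes passed that interaction, so the Tlr4 response is not shown to differ between genotypes.

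The second probe set of Tlr4, 1418163_at, moved the same way. It lay at 5.24, 5.43 and 5.08 in control cells without IgM and at 3.20, 3.71 and 3.74, under the filter level of 4, with it. In the fit to all 19187 passing probe sets, of which 18.2% passed, it fell by 1.70 in control cells (SE 0.50, limma adjusted p = 0.038), with a size that is compressed near the array floor of 2.23. Its deleted arrays read 5.21, 6.51 and 5.50 without IgM and 4.11, 5.39 and 6.34 with it, a difference of -0.46 (limma adjusted p = 0.571), or -0.99 without deleted IgM replicate 3 (limma adjusted p = 0.152). The other probe sets of Tlr4, 1430695_at and 1442827_at, lay between 2.23 and 2.57 on all 12 arrays and were not tested.

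Tlr4 was also the member with the largest genotype difference after IgM. Deleted cells with IgM were higher by 1.41 (SE 0.39, 95% interval 0.55 to 2.27, n = 3 per group), and this did not pass (limma adjusted p = 0.11). The difference was -0.01 between the arrays of replicate 1, 1.71 between those of replicate 2 and 2.52 between those of replicate 3. Without deleted IgM replicate 1 it was 1.89 and passed (adjusted p = 0.0186), and without deleted IgM replicate 3 it was 0.97 and did not (adjusted p = 0.172). The probe set 1418163_at gave 1.73 (SE 0.50, limma adjusted p = 0.156, or 0.0443 with the replicate number as a block), or 1.20 without deleted IgM replicate 3 (limma adjusted p = 0.304), and all 3 deleted arrays lay above all 3 control arrays. Summed markers of myeloid cells, which carry TLR4, were higher in deleted cells, though not marker by marker. The macrophage and monocyte list, 7 of 15 markers past the filter, summed to 231 to 519 in control and 672 to 2662 in deleted cells with IgM, while Itgam, C1qa, C1qb, C1qc and Mertk stayed at or below 4 on all arrays. Without IgM the sums of that list were 274 to 657 and 867 to 3356. Within the list Lyz2 was higher in deleted cells without IgM, at 9.08 to 11.29 against 6.34 to 8.52 in control cells. With IgM its arrays overlapped, at 7.39, 8.26 and 5.93 in control and 10.69, 10.91 and 7.15 in deleted cells. Cd14 read 2.29, 2.34 and 2.26 in control and 5.89, 5.94 and 2.27 in deleted cells with IgM. Csf1r read 3.10, 5.10 and 3.61 in control and 7.55, 8.14 and 8.08 in deleted cells with IgM. Adgre1, which encodes a surface receptor of macrophages, went the other way without IgM, at 5.61 to 6.27 in control and 4.15 to 4.97 in deleted cells, and Cx3cr1 lay between 3.31 and 4.17 on all 12 arrays. The neutrophil list, 7 of 11 past the filter and Cxcr2 and Mmp8 at or below 4, summed to 211 to 1366 and 1702 to 10935 with IgM and to 292 to 2456 and 2627 to 18758 without. The part of these cells in the Tlr4 values was not tested.

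Among the endosomal receptors, TLR3 reads double-stranded RNA. Its probe sets 1422781_at and 1422782_s_at stayed under the filter on all 12 arrays, with a highest value of 3.65 and 3.68, each on control unstimulated replicate 2. TLR9 reads unmethylated CpG DNA. The probe set of Tlr9 lay just above the filter, from 4.07 to 4.82, and 5 of the 12 arrays read 4.39. Group means were 4.29 and 4.37 in control cells without and with IgM, and 4.28 and 4.57 in deleted cells. Differences of this dim probe set did not pass in any comparison. The IgM difference was 0.08 in control cells (95% interval -0.34 to 0.51, limma adjusted p = 0.844) and 0.29 in deleted cells (95% interval -0.13 to 0.72, limma adjusted p = 0.323).

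TLR7 reads single-stranded RNA, and its gene lies on the X chromosome. The brightest probe set, 1422010_at, lay at 8.67, 9.37 and 8.93 in control cells without IgM and at 9.01, 9.56 and 9.44 with it. The deleted arrays read 7.54, 8.09 and 8.14 without IgM and 8.82, 8.95 and 10.38 with it. The deleted arrays without IgM were the lowest of the 12 and did not overlap with either neighbouring group. Tlr7 rose by 1.46 with IgM in deleted cells, or 2.75-fold (SE 0.39, n = 3 per group, limma adjusted p = 0.0253). In control cells the difference was 0.35 (95% interval -0.52 to 1.22, limma adjusted p = 0.625), and it passed with the replicate number as a block and deleted IgM replicate 3 left out (adjusted p = 0.0442). The share of all tested genes called in that last fit was not counted. The interaction was 1.11 (95% interval -0.12 to 2.34, limma adjusted p = 0.951), so the response is not shown to differ between genotypes. With deleted IgM replicate 3, the array with the highest value, left out, the rise in deleted cells was 0.96 (adjusted p = 0.0248), a change of more than 1.5 times. It did not pass without deleted unstimulated replicate 1, 2 or 3 (adjusted p = 0.0995, 0.0549 and 0.0514).

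The other Tlr7 probe sets gave smaller differences in deleted cells, and these moved with deleted IgM replicate 3. The probe set 1449640_at lay at 5.58, 5.82 and 5.73 in control cells without IgM and at 6.80, 6.68 and 5.98 with it. Its deleted arrays read 5.62, 5.22 and 5.21 without IgM and 6.01, 5.71 and 3.88 with it. The IgM difference was 0.78 in control (limma adjusted p = 0.308) and -0.15 in deleted cells (limma adjusted p = 0.86). For 1419848_x_at, whose name suffix marks probes that may bind other transcripts, it was 0.76 (limma adjusted p = 0.0947) and 0.28 (limma adjusted p = 0.533). With deleted IgM replicate 3 left out, the deleted differences of 1449640_at and 1419848_x_at were 0.51 and 0.42 (limma adjusted p = 0.206 and 0.374), and the control rise of 1449640_at passed (limma adjusted p = 0.0289). On deleted IgM replicate 3 the value of 1422010_at was the highest of the 12 arrays and that of 1449640_at the lowest. With all passing probe sets of Tlr7 averaged, the IgM difference was 0.63 in control cells and passed (adjusted p = 0.0465), and was 0.53 in deleted cells and did not (adjusted p = 0.0887).

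**Figure D2:**
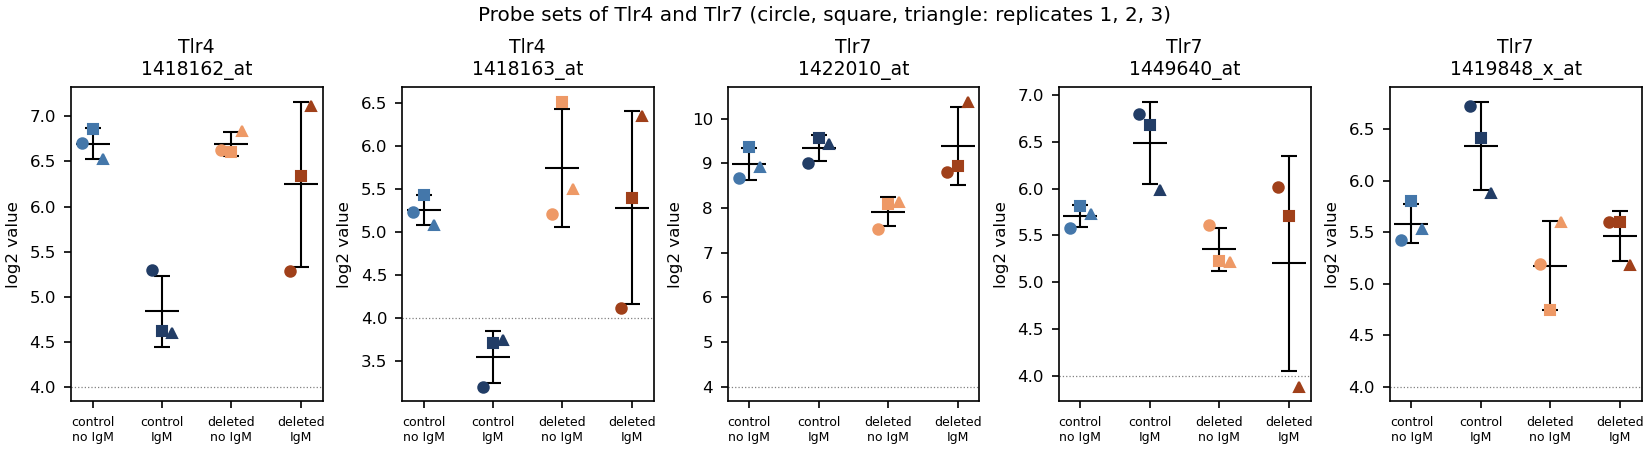
Log2 values (y axis) of the 2 probe sets of Tlr4 and the 3 of Tlr7 that passed the filter, by genotype and IgM (x axis). Points are arrays, bars group means, whiskers SDs of 3 arrays, and the dotted line the filter at 4. The Tlr4 probe sets share their low values in control cells with IgM and are also low on deleted IgM replicate 1, at 5.29 and 4.11. The Tlr7 probe sets part on deleted IgM replicate 3, at 10.38, 3.88 and 5.18.

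The genotype difference of Tlr7 without IgM was -1.07 (SE 0.39, 95% interval -1.94 to -0.20, n = 3 per group) and did not pass over all genes (limma adjusted p = 0.279). The probe set 1422010_at was lower in deleted cells in each replicate number, by -1.13, -1.28 and -0.79. The same difference passed (adjusted p = 0.0293) when deleted IgM replicate 3, which enters only the shared estimate of the spread, was left out, in a fit where 5.93% of genes passed. For 1419848_x_at and 1449640_at it was -0.41 and -0.36 (limma adjusted p = 0.893 and 1). With IgM the difference of 1422010_at was 0.04, or -0.46 without deleted IgM replicate 3 (limma adjusted p = 0.959 and 0.565). The other probe sets were lower in deleted cells with IgM in each replicate number and did not pass. The difference of 1419848_x_at was -0.88 (limma adjusted p = 0.223, unadjusted p = 0.0105), with groups that did not overlap, or -0.74 without deleted IgM replicate 3. That of 1449640_at was -1.29 (limma adjusted p = 0.3, unadjusted p = 0.0193), or -0.63 without that array. The transcript of the inactive X chromosome, Xist, read 2.44 or less on all 4 arrays numbered 1, 1 from each group. It read 7.67 to 11.75 on the arrays numbered 2 and 3, so its level moved with the replicate number across the groups. Eif2s3y, a gene of the Y chromosome, read 10.39 to 10.66 on the arrays numbered 1. It read 7.97 to 8.67 on those numbered 2 and 9.69 to 10.24 on those numbered 3. The arrays numbered 2 and 3 thus carried both transcripts. Uty and Kdm5d, also genes of the Y chromosome, read 2.97 to 4.33 and 4.65 to 5.40 on the arrays numbered 2. On those numbered 1 and 3 they read 5.40 to 6.93 and 6.63 to 8.29. The part of sex in the Tlr7 values was not tested. Plasmacytoid dendritic cells carry B220 and much TLR7 and TLR9. Their list, 7 of 10 markers past the filter and Cd209d at or below 4, summed to 3565 to 4138 in control and 5054 to 5969 in deleted cells without IgM, and to 2941 to 3568 and 3432 to 4523 with it. Within that list Bst2 was higher in deleted cells without IgM, at 10.85 to 11.33 against 9.38 to 9.74, and so was Siglech, at 5.89 to 7.52 against 5.17 to 5.64. The arrays of Pacsin1, Klk1, Tcf4, Ccr9 and Cox6a2 overlapped between genotypes. The part of these cells in the Tlr7 values was not tested.

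CD180 resembles TLR4 outside the cell and lacks the signalling domain of the Toll-like receptors. Cd180 lay at 7.22, 7.59 and 6.75 in control cells without IgM and at 8.47, 8.38 and 7.90 with it. Deleted arrays read 8.18, 8.13 and 7.38 without IgM and 9.07, 9.10 and 8.77 with it. It was higher with IgM in every replicate number of each genotype, and in each genotype all arrays with IgM lay above all without. Cd180 rose by 1.06, or 2.09-fold, in control cells (SE 0.29, n = 3 per group, limma adjusted p = 0.0249) and by 1.09, or 2.13-fold, in deleted cells (SE 0.29, n = 3 per group, limma adjusted p = 0.025). The control rise did not pass without control IgM replicate 1 or 2 (adjusted p = 0.0895 and 0.0846) or control unstimulated replicate 1 or 3 (adjusted p = 0.0666 and 0.0987). The deleted rise did not pass without deleted IgM replicate 1 or 2 (adjusted p = 0.0534 and 0.0685) or deleted unstimulated replicate 3 (adjusted p = 0.0918). Leaving out deleted IgM replicate 3 gave a deleted rise of 1.19 (adjusted p = 0.0193). The interaction was 0.02 with an interval from -0.89 to 0.94 (limma adjusted p = 0.989). The marginal zone B cell list, 6 of 8 markers past the filter and Asb2 and Pla2g2d at or below 4, had higher sums with IgM, 5161 to 5860 against 2922 to 4374 in control and 4750 to 8228 against 2479 to 2975 in deleted cells. Its members did not move together. Cr2, S1pr3 and Myof were higher with IgM in each genotype, with S1pr3 at 10.94 to 11.13 against 7.07 to 8.18 in control cells, while Cd1d1 was lower, at 5.46 to 6.12 against 7.74 to 8.15, and Cd9 was lower in each replicate number. The part of marginal zone cells in the Cd180 values was not tested.

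Cd180 was also higher in deleted cells in each replicate number, by 0.96, 0.54 and 0.62 without IgM and by 0.60, 0.72 and 0.88 with it. These differences, 0.71 without IgM (95% interval 0.06 to 1.35) and 0.73 with it (95% interval 0.09 to 1.38, n = 3 per group each), did not pass over all genes (limma adjusted p = 0.378 and 0.297). With the replicate number as a block both passed (limma adjusted p = 0.0307 and 0.0302), in a fit in which 6.89% and 6.76% of all tested genes passed.

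MD-1, the product of Ly86, carries CD180 to the cell surface. Ly86 lay at 13.21, 13.26 and 12.96 in control cells without IgM and at 12.63, 12.82 and 12.15 with it. The deleted arrays read 13.05, 13.17 and 12.99 without IgM and 12.68, 12.83 and 10.18 with it. The arrays with IgM lay below those without in each genotype, and deleted IgM replicate 3 stood far below the rest. The difference was -0.61 in control (95% interval -1.85 to 0.63, limma adjusted p = 0.528) and -1.17 in deleted cells (95% interval -2.41 to 0.06, limma adjusted p = 0.174). When deleted IgM replicate 3 was left out, Ly86 passed in control cells with the same -0.61 (adjusted p = 0.0254), and the deleted difference was -0.32 (adjusted p = 0.301). With that array left out and the replicate number as a block, the deleted difference was -0.42 and passed as well (limma adjusted p = 0.0188). The share of all tested genes called in that fit was not counted. Ly86 thus had its lower values, and its partner Cd180 its higher values, on the arrays with IgM.

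MyD88 is the adaptor that links most Toll-like receptors to their kinases. Myd88 lay at 9.84, 10.10 and 9.65 in control cells without IgM and at 9.69, 10.12 and 9.60 with it. In deleted cells it lay at 9.73, 10.15 and 9.82 without IgM and at 9.75, 10.13 and 9.71 with it. All 4 groups overlapped, and replicate 2 was the highest array of each. The IgM difference was -0.06 in control (95% interval -0.56 to 0.43, limma adjusted p = 0.902) and -0.03 in deleted cells (95% interval -0.53 to 0.46, limma adjusted p = 0.935). Genotype differences were 0.03 without IgM (95% interval -0.46 to 0.53, limma adjusted p = 1) and 0.06 with it (95% interval -0.43 to 0.56, limma adjusted p = 0.896).

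UNC93B1 carries the endosomal receptors out of the endoplasmic reticulum. Unc93b1 lay at 10.98, 10.44 and 10.50 in control cells without IgM and at 9.42, 9.28 and 8.97 with it. In deleted cells it lay at 10.95, 10.76 and 10.77 without IgM and at 9.69, 9.60 and 9.55 with it. The arrays with IgM lay about 1 log2 unit or more below those without in each genotype. Unc93b1 fell by 1.42, or 2.67-fold, in control cells (SE 0.20, n = 3 per group, limma adjusted p = 0.000899) and by 1.21, or 2.32-fold, in deleted cells (SE 0.20, n = 3 per group, limma adjusted p = 0.00251). Leaving out any single array kept both calls, and the difference in deleted cells without deleted IgM replicate 3 was -1.18 (limma adjusted p = 0.00237). The interaction was 0.20 with an interval from -0.44 to 0.84 (limma adjusted p = 0.951).

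**Figure D3:**
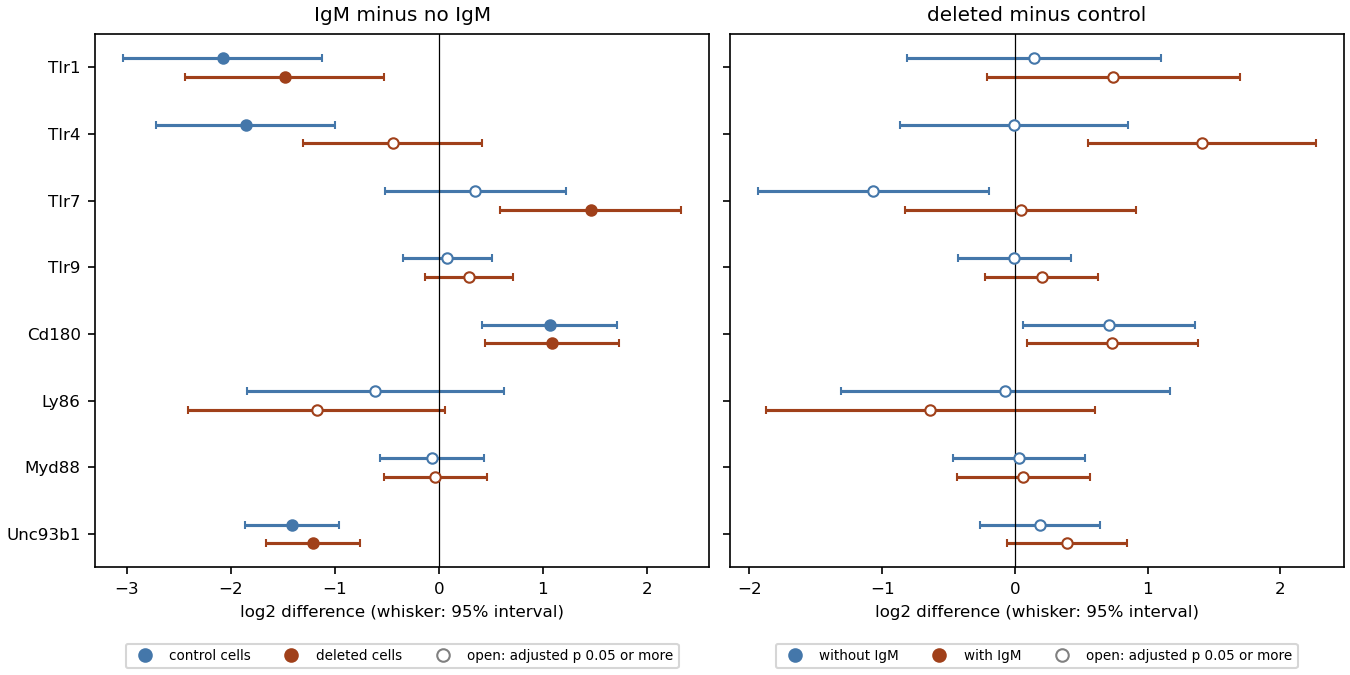
Log2 differences (x axis) of the 8 tested genes for IgM minus no IgM (left) and deleted minus control (right), with 95% intervals from limma and filled points where the adjusted p is under 0.05. In the left panel Tlr1 and Unc93b1 are filled below 0 and Cd180 above 0 in both genotypes, Tlr4 in control cells and Tlr7 in deleted cells, and in the right panel no point is filled.

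The comparison of genotypes asked how Foxp1 deletion altered these genes. In the fit with no replicate block no member passed without IgM, where 2.85% of all tested genes did, or with IgM, where 1.72% did (limma, Benjamini-Hochberg). With the block Cd180 passed in both (limma adjusted p = 0.0307 and 0.0302), in a fit where 6.89% and 6.76% of all tested genes passed. At an unadjusted p under 0.05 there were 2 members in each, Tlr7 and Cd180 without IgM and Tlr4 and Cd180 with it. The share of all tested genes at that unadjusted level was not counted, so these counts show no excess of members. The arrays of the genotypes did not overlap for 1 of 8 members without IgM, Tlr7, and for 2 of 8 with it, Cd180 and Unc93b1, against 18.9% and 17.9% of all tested genes. Tlr1 differed by 0.14 without IgM (95% interval -0.81 to 1.10, limma adjusted p = 1) and by 0.74 with it (95% interval -0.21 to 1.70, limma adjusted p = 0.474). For Unc93b1 the differences were 0.19 and 0.39 (95% intervals -0.27 to 0.64 and -0.06 to 0.84, limma adjusted p = 1 and 0.433). Ly86 differed by -0.07 and -0.64 (95% intervals -1.31 to 1.16 and -1.88 to 0.60, limma adjusted p = 1 and 0.585), and by 0.22 with IgM without deleted IgM replicate 3. These intervals still allow differences of more than 1 log2 unit for Tlr1 and Ly86. In the interaction 0 of 8 members passed by limma, and 1, Tlr4, had an unadjusted p under 0.05, again with no share over all genes counted.

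Other genes of the pathway were read from 6 lists chosen by role. Of 7 other Toll-like receptor genes 2 passed the filter, and Tlr2, the partner of TLR1, fell by 1.43 with IgM in control cells (SE 0.37, limma adjusted p = 0.0188), from 6.16 ± 0.41 to 4.74 ± 0.48 (SD, n = 3). That call was lost without control IgM replicate 3 or control unstimulated replicate 1 or 2 (adjusted p = 0.0611 to 0.0824). In deleted cells the difference of Tlr2 was 0.36 (limma adjusted p = 0.529), and its interaction of 1.79 did not pass (limma adjusted p = 0.604). Deleted cells with IgM differed by 1.37 in Tlr2, which passed with the replicate block and not without it (limma adjusted p = 0.0994, or 0.0338 with the block). Tlr6, the other partner of TLR2, differed with IgM by -0.99 in control and -1.17 in deleted cells and passed with the block and not without it (limma adjusted p = 0.217 and 0.14, or 0.0437 and 0.0226 with it). In that blocked fit 35.5% and 36.7% of all tested genes passed in the IgM responses. Of the listed co-receptors Ly96, Cd14 and Cd36 were tested, and 0 of 3 passed in any of the 5 comparisons (limma). In each genotype difference and in the control IgM response 1 had an unadjusted p under 0.05, a level whose share over all genes was not counted. Cd14, a co-receptor of TLR4 and a monocyte marker, differed by 2.87 between genotypes without IgM (limma adjusted p = 0.175, or 0.0168 without deleted IgM replicate 3 and 0.0448 with the block).

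Among 9 tested genes that fold, move or cut Toll-like receptors, 4 fell and 0 rose with IgM in control cells. Over all tested genes 20.7% passed in control cells, 8.71% as rises. The list median was -0.71, against -0.05 over all tested genes. Cnpy4, a relative of the TLR chaperone Cnpy3, fell by 1.68, the transport adaptor gene Ap3b1 fell by 1.18, the lysosomal protease gene Lgmn fell by 1.09 and the endolysosomal transporter gene Slc15a4, needed for TLR7 and TLR9 signalling, fell by 1.03 (limma adjusted p = 0.00429, 0.00991, 0.00847 and 0.00296). In deleted cells 1 fell, Cnpy4 by 1.42 (limma adjusted p = 0.0115), where 19.0% of all tested genes passed. The list median was -0.40 there, against -0.08 over all tested genes. Without deleted IgM replicate 3, 3 fell in deleted cells, Cnpy4, Ap3b1 and Slc15a4, with -1.06, -1.13 and -0.52 (limma adjusted p = 0.012, 0.00126 and 0.0181). In control cells Ctss was then added, with -0.71 (limma adjusted p = 0.00221). In that fit 25.7% of all tested genes passed in deleted and 36.1% in control cells. With the replicate number as a block 4 fell in deleted cells, Cnpy4, Lgmn, Ap3b1 and Ctss (limma adjusted p = 0.00244, 0.00921, 0.0328 and 0.0341), in a fit where 36.7% of all tested genes passed. Ap3b1 differed by 1.06 between genotypes with IgM and passed with the block and not without it (limma adjusted p = 0.076, or 0.0398 with it). Slc15a4 was higher in deleted cells with IgM by 0.88 (SE 0.19, limma adjusted p = 0.042), at 10.53 ± 0.27 against 9.65 ± 0.06 (SD, n = 3), a call that was lost without deleted IgM replicate 2 (adjusted p = 0.0855), without control IgM replicate 1, 2 or 3 (adjusted p = 0.145, 0.11 and 0.18), and without any 1 of the 6 unstimulated arrays (adjusted p = 0.0636 to 0.0817).

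Of 12 tested adaptors and proximal kinases, 1 fell and 0 rose in control cells and 1 fell and 1 rose in deleted cells. Over all tested genes 20.7% passed in control and 19.0% in deleted cells. Without deleted IgM replicate 3 Traf6 rose by 0.45 in control cells (limma adjusted p = 0.0477), where 36.1% of all tested genes passed. The ubiquitin ligase gene Peli1 differed by -1.29 in control and by -0.62 in deleted cells, a fall in each (limma adjusted p = 0.000891 and 0.0387), and the adaptor gene Pik3ap1 rose by 1.69 in deleted cells (limma adjusted p = 0.0487, or 0.0957 without deleted IgM replicate 3). In control cells Pik3ap1 differed by 1.58 (limma adjusted p = 0.059), which passed with the block (0.0207) and without deleted IgM replicate 3 (0.0478), and its interaction was 0.11. Peli1 differed by 0.66 between genotypes with IgM, and Tab3 by 0.69 with IgM in deleted cells, and each passed with the block and not without it (limma adjusted p = 0.117 and 0.199, or 0.0414 and 0.0142 with it). In deleted cells the Peli1 call was lost without any 1 of 10 of the 12 arrays (adjusted p = 0.0522 to 0.133) and the Pik3ap1 call without any 1 of 9 (adjusted p = 0.0595 to 0.136). Among 8 tested IKK-family and IRF genes, Irf7 fell, with -1.60 in control cells and -1.46 in deleted cells (limma adjusted p = 0.0236 and 0.0384). Irf8 rose by 0.96 in deleted cells (limma adjusted p = 0.0378). In control cells Irf8 differed by 0.82 (limma adjusted p = 0.065), which passed with the block (0.00471) and without deleted IgM replicate 3 (0.0258), and its interaction was 0.14. Irf5 differed by -0.65 in control and -0.61 in deleted cells and passed with the block (limma adjusted p = 0.0681 and 0.0915, or 0.00828 and 0.0125 with it), and in control cells also without deleted IgM replicate 3 (0.0263). Without deleted IgM replicate 3 the deleted values of Irf7 and Irf8 were -0.96 and 0.76 and did not pass (adjusted p = 0.07 and 0.071). The control call of Irf7 was lost without control IgM replicate 3 or control unstimulated replicate 1 or 2 (adjusted p = 0.067 to 0.0994), and the deleted calls of Irf7 and Irf8 without any 1 of 6 and of 8 of the 12 arrays (adjusted p = 0.0512 to 0.109 and 0.0527 to 0.141). The kinase genes Irak1, Map3k7, Tbk1 and Ikbkb and the IKK subunit gene Ikbkg did not pass in either IgM comparison with all arrays. Without deleted IgM replicate 3 Ikbkg differed by -0.59 in deleted cells and passed (limma adjusted p = 0.0362).

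Inhibitors of the pathway moved in both directions with IgM. Of 6 tested genes 2 fell and 1 rose in each genotype, where 20.7% of all tested genes passed in control and 19.0% in deleted cells. Without deleted IgM replicate 3, 4 fell in control and 3 in deleted cells and 1 rose in each. In that fit 36.1% and 25.7% of all tested genes passed. Cyld was among those falls in each genotype, with -0.71 in control and -0.70 in deleted cells (limma adjusted p = 0.00671 and 0.0168). Irak3, which encodes an inactive kinase relative that blocks IRAK signalling, fell, with -1.90 in control and -1.05 in deleted cells (limma adjusted p = 0.00164 and 0.0351). Sigirr, a receptor of the same family that inhibits signalling, fell, with -1.85 and -1.25 (limma adjusted p = 0.000256 and 0.00265), and Tnfaip3, whose product A20 ends NF-kB signalling, rose by 0.96 and 1.26 (limma adjusted p = 0.0442 and 0.0147). Irak3 was also higher in deleted cells with IgM, at 9.17 ± 0.73 against 7.25 ± 0.20 (SD, n = 3), by 1.93 (SE 0.31, limma adjusted p = 0.0116), or 1.51 without deleted IgM replicate 3 (adjusted p = 0.00167). Without IgM the genotype difference of Irak3 was 1.08 (limma adjusted p = 0.112), which passed with the block (0.044) and without deleted IgM replicate 3 (0.00118), and the interaction was 0.85 (limma adjusted p = 0.951). The call with IgM was lost without control IgM replicate 1 or 3 (adjusted p = 0.0575 and 0.0513). Irak3 is also expressed in myeloid cells, whose marker sums differed between genotypes as given above, and their part in its values was not tested. The fall of Irak3 in deleted cells was lost without any 1 of 10 of the 12 arrays (adjusted p = 0.0505 to 0.106). The Tnfaip3 rise was lost in control cells without any 1 of 9 arrays (adjusted p = 0.0583 to 0.167) and in deleted cells without deleted unstimulated replicate 1 (adjusted p = 0.0536). Tnip1, which encodes a partner of A20, differed by -0.77 in control cells and passed with the block (limma adjusted p = 0.0816, or 0.0066 with it) and without deleted IgM replicate 3 (0.0457).

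**Figure D4:**
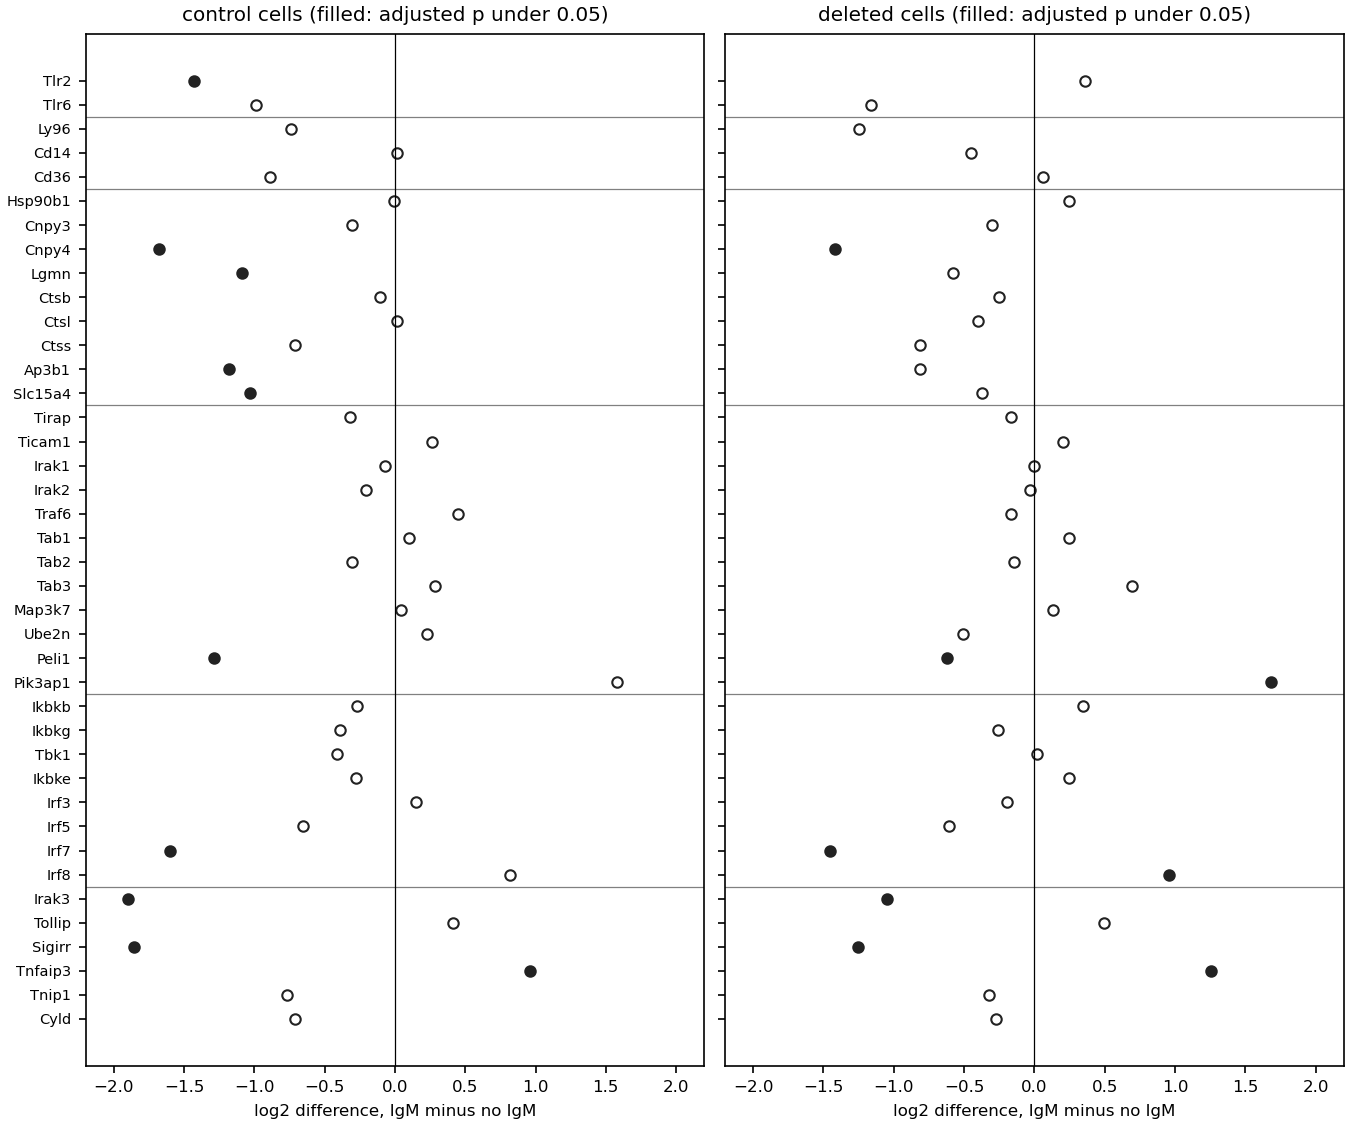
Log2 differences with IgM (x axis) of the 40 tested genes of the 6 pathway lists (y axis, lists separated by lines) in control and deleted cells, filled where the limma adjusted p is under 0.05. From the top the lists are other Toll-like receptors, co-receptors, transport and processing, adaptors and kinases, IKK and IRF, and inhibitors. Of the filled points in control cells 9 of 10 are falls. Over all tested genes 20.7% passed there, 8.71% as rises. In deleted cells Cnpy4, Peli1, Irf7, Irak3 and Sigirr are filled below 0 and Pik3ap1, Irf8 and Tnfaip3 above it. Over all tested genes 19.0% passed there, 9.78% as rises.

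As a description of pattern, the tested genes most like each moving member over the 12 arrays were found by Pearson correlation. These arrays share 4 groups and 3 replicate numbers, so genes with a like IgM response correlate. Nearest to Tlr1 were Snx2, Rnf141 and Pcmtd2 (r = 0.961 to 0.965), and to Tlr4 Pttg1ip, Cyp4v3 and Mef2c (r = 0.937 to 0.953). Tlr7 was closest to Slc19a2, C9orf72 and Zdhhc23 (r = 0.968 to 0.978), Cd180 to Scfd2, Dram1 and Tom1 (r = 0.938 to 0.970), and Unc93b1 to Rbm43, Csk and Arhgap9 (r = 0.985 to 0.994). Over the 11 arrays left without deleted IgM replicate 3, Slc19a2 and Scfd2 stayed first for Tlr7 and Cd180 (r = 0.964 and 0.981). Snx2, Pttg1ip and Rbm43 moved from first to rank 5 for Tlr1, Tlr4 and Unc93b1, and Mef2c and Arhgap9 moved from rank 3 to ranks 29 and 35. Among the members, Tlr1 correlated with Tlr4 at 0.84 and with Unc93b1 at 0.82, and Cd180 with Tlr1 at -0.67.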

How the data were processed

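The deposited log2 values of 12 one-colour Affymetrix arrays are GCRMA values by the authors, as the submitters' processing notes name it, with settings not given in the sources used here. Nothing else was done to them before the fit. The deposited log2 values ran from 2.23 to 15.79 with array medians of 2.45 to 2.49. Arrays have no read depth, so their number limits the precision. Probe sets were named through the platform annotation, with symbols updated by gene ID for 34741 of 34945 probe sets with 1 gene. The 932 with several genes and the 9160 with none were left unnamed. Each gene was read from its passing probe set with the highest mean.

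One mean per group was fitted to all 12 arrays with limma 3.58.1 in R 4.3.3 (two-sided, Benjamini-Hochberg over 9293 genes, threshold 0.05), for 5 comparisons, and single probe sets in a fit to all 19187 that passed. The code was tested on simulated data. The main fit held no term for the replicate number. Arrays with the same number departed together from their group means. Their correlations were 0.174 to 0.847 in each pair of groups that share a genotype or a stimulation. The replicate number was therefore added as a block in a further fit, and block values are given where they change a call. Named pathway genes were up to 4 per list and comparison with the largest change past the threshold, or the 2 with the smallest p. The members, lists and motifs were chosen with earlier results of these data known.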

Additional observations from a re-analysis of the deposited data

How the results depend on the processing

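Across 27 alternatives no called difference of a member changed sign. None of these read a member from a dimmer probe set alone. The called Tlr7 rise of 1.46 in deleted cells was 0.28 on 1419848_x_at. On 1449640_at it was -0.15, or 0.51 without deleted IgM replicate 3. The counts of members past the threshold were 0 of 8 for each genotype difference, 4 for each IgM response and 0 for the interaction. With the replicate block they were 1 and 1 for the genotype differences, Cd180 in each case, and the block changed no other call of a member in the fit to genes. Array weights gave 1 and 1 (Tlr7 without IgM, Tlr4 with it), and the block without deleted IgM replicate 3, chosen after the data were seen, gave 2 and 1, with 6 for each IgM response (Tlr7 and Ly86 added in control cells, Tlr4 and Ly86 in deleted cells). For these fits the share of all tested genes called was not counted, so their counts show no excess of members. The block with all arrays called 35.5% and 36.7% of all tested genes in the IgM responses. The count in deleted cells was 1 with no filter and 1 with only the compared groups, where fewer arrays estimate the spread, and the cause of the former was not tested. Leaving out arrays gave 0 to 1 for the genotype difference without IgM (1 without deleted IgM replicate 3) and 0 to 1 with IgM (1 without deleted IgM replicate 1). It gave 0 to 5 for control cells, with 0 without all arrays of replicate 2, and 0 to 4 for deleted cells, with 0 without all arrays of replicate 1 or of replicate 2, where 8 arrays remain. Without single arrays the deleted count was 2 without deleted IgM replicate 1 or 2 or deleted unstimulated replicate 2, and 1 without deleted unstimulated replicate 3. Signals of Tlr3 and Tlr9 near or under the filter limit what can be said of them.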
